A study of Mus musculus with 3 samples.

Results

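The 45 genes described here are the protein-coding genes whose transcript level in mouse granulosa cells was at least 2-fold higher at 12 h after the ovulatory signal than both before it and at 4 h after it, without a 2-fold rise at 4 h. They were chosen from 20504 genes with at least 1 coding RefSeq isoform (accession prefix NM), on FPKM values, fragment numbers corrected for transcript length and library depth. For each gene the FPKM of its NM isoforms were summed, 1 FPKM was added, and the log2 ratios were taken: under 1 for 4 h over 0 h, and at least 1 for both 12 h over 4 h and 12 h over 0 h. Genes with a log2 ratio of -1.3 or lower at 4 h and a recovery of 1.3 or more by 12 h were left out. Members make up 0.219% of these genes. All 3 libraries chose them, so their folds are a description and no test was run on them.

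Cells came from ovaries of wild-type C57BL/6 females aged postnatal day 21 to 28. All mice had received 4 IU of equine chorionic gonadotropin (eCG), which makes follicles grow; the 0 h cells were taken before, and the 4 h and 12 h cells after, 5 IU of human chorionic gonadotropin (hCG), which triggers ovulation. Granulosa cells were released by puncturing the follicles, so oocytes and other follicle cells can be present. RNA of 3 mice per time is represented by 1 library per time, and whether their RNA was pooled was not given in the sources used here. Each difference is therefore between 2 libraries, with no replicate error. The interval given after a level is the deposited one, 2 standard deviations of the estimate within 1 library, joined over isoforms where a gene has several. It does not cover the spread between mice. In bulk RNA, a change in the number of cells of a type and a change of RNA per cell cannot be told apart.

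Granulosa cells line the follicle and make estradiol before the luteinizing hormone surge. After it they pass through a short wave of ovulatory transcripts and then turn into progesterone-producing luteal cells, while the follicle wall is broken down and vessels grow in. A time near ovulation thus lies between the early wave and the mature corpus luteum. By the same 2-fold measure, 5.95% of the 20504 coding genes gained and 4.08% lost between 0 and 4 h. Fold calls below also use FPKM + 1 unless a plain ratio is named, which damps changes of genes at low levels. From 4 to 12 h 2.75% gained and 4.56% lost, and from 0 to 12 h 1.7% gained and 1.24% lost. Of the 563 genes higher at 12 h than at 4 h, 512 were not 2-fold above the 0 h level. Only 51 were higher than at both earlier times, and 4 of those had already risen by 4 h.

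The 45 members fall into 3 sets by how well the rise is measured. In 20 of them the 12 h interval lay above the intervals of both earlier libraries and the rule was still met when noncoding isoforms (prefix NR) were added to the sum. For 2 of the 20, Cmtm5 and Epp13, the 0 h interval had no width, with both bounds at 0. Any 12 h lower bound over 0 lay above it, as it did at 4 h for Epp13. The place of Cmtm5 among the 20 also rests on how bounds were joined. Deposited lower bounds are cut off at 0, and 1 of its 2 isoforms was at 0.660 FPKM at 12 h with bounds of 0 and 3.33. With a joined lower distance as wide as the upper one, its 12 h interval would reach 0 and overlap that at 4 h. Another 16 met the rule with NR isoforms added, but their 12 h interval overlapped that of at least 1 earlier library. The last 9 are the members that have an NR isoform at all, and none of the 9 met the rule once it was counted. Over all 20504 coding genes, the 12 h interval lay above both others in 1.5%. The rule chose members on these same values, so nothing follows from that contrast. Levels were low: 24 of 45 members reached 5 FPKM at 12 h, 15 reached 10 and 3 reached 50. The median member was at 0.857 FPKM at 0 h, 0.686 at 4 h and 5.55 at 12 h, against 2.91, 3.002 and 3.15 FPKM for all coding genes. The median log2 ratio of members was 1.35 for 12 h over 4 h and 1.38 for 12 h over 0 h, both of which the rule fixes to be over 1. Between 0 and 4 h, 42 of 45 members moved by less than 0.5 on the log2 scale.

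**Figure D1:**
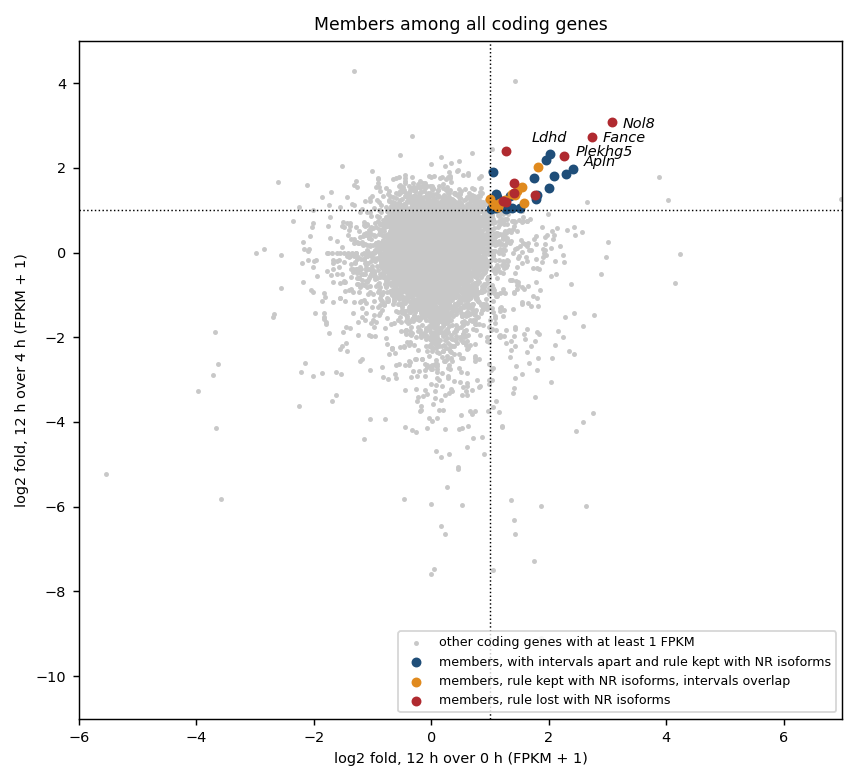
Log2 ratio of FPKM + 1 for 12 h over 0 h (horizontal axis) and 12 h over 4 h (vertical axis); each point is 1 coding gene with at least 1 FPKM in a library, and dotted lines mark a 2-fold rise. The 45 members (coloured) fill the upper right corner together with 4 grey genes that had already risen at 4 h and 2 that dipped at 4 h, and 3 of the 4 members that are highest when the smaller of both ratios is ranked, Nol8, Fance and Plekhg5, are in the set that loses the rule once noncoding isoforms are counted.

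The start regions of 5 of the better measured members are shown first, because these genes carry the pattern and 2 of them, Apln and Xpnpep2, are neighbours on the X chromosome. Each is the 250 bases before a transcription start in RefSeq (GRCm38.p6), 5′ to 3′ on the gene's own strand. The window of Xpnpep2 lies inside the span of that gene (48106913 to 48136982), before a later start. Whether the measured isoform begins there was not tested. Capitals mark letters that match any of 7 searched motifs on either strand: AAGGTCA (the site bound by the steroidogenic receptors SF-1 and LRH-1), TGANTCA (AP-1), TGACG (the core of a cAMP response element), TTGCNNAA (bound by C/EBP factors), CCAAT (the box bound by NF-Y), GGGCGG (the box bound by Sp1) and TATAAA (the TATA box). The E box CANNTG was also searched and is not marked.
Ldhd, chr8:111630337-111630586, minus strand: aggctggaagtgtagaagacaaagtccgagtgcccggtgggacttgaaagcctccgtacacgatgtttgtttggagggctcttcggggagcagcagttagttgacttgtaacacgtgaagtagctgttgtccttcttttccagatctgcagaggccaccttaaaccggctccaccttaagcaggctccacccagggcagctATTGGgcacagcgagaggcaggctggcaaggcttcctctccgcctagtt
Apln, chrX:48034854-48035103, minus strand: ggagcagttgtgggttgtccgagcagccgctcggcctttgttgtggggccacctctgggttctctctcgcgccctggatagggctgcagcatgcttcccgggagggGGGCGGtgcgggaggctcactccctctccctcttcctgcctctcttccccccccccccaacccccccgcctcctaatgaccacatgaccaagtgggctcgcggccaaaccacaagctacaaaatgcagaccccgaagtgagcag
Xpnpep2, chrX:48108475-48108724, plus strand: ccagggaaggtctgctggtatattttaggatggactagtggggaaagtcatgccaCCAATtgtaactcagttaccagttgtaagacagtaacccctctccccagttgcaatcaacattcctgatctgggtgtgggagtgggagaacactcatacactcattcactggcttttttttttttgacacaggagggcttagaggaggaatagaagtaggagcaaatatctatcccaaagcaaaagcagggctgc
Mmp11, chr10:75932503-75932752, minus strand: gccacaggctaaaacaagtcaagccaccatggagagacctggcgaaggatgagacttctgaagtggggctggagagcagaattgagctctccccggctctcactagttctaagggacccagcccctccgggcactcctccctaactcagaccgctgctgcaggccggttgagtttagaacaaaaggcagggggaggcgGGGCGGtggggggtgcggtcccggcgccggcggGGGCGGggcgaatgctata
Mlf1, chr3:67373847-67374096, plus strand: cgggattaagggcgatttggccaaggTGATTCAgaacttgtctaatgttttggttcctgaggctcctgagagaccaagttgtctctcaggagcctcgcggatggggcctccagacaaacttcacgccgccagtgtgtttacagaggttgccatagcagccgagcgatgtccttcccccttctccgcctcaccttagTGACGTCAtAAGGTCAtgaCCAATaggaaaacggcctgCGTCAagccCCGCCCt

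Of the 45 members 37 had an entry in the promoter table, and motifs were counted in the first start listed for each gene, in members and in all genes alike. AAGGTCA was found in 1 of these windows (2.70%, against 3.51% of 16390 coding gene promoters of the same length), and that one is Mlf1. The match in Mlf1 lies 45 to 39 bases before the start, next to a pair of overlapping TGACG matches, 1 on each strand, that span 54 to 47 bases before it. TGANTCA occurred in 3 member promoters (8.11%, against 6.34%), TGACG in 5 (13.5%, against 21.1%), TTGCNNAA in 2 (5.41%, against 8.97%) and TATAAA in 4 (10.8%, against 12.1%). CCAAT was in 13 (35.1%, against 36.5%), GGGCGG in 17 (45.9%, against 44.7%) and CANNTG in 23 (62.2%, against 62.2%). These shares were not tested. The CCAAT match of Xpnpep2 overlaps a CANNTG match. The median GC content of the window was 55.6% in members and 56.0% in all. A match of letters is not a bound site, and its absence from this window says nothing about a factor.

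Secreted signals and receptors form the first group of well measured members. Apln encodes apelin, a peptide that acts on the receptor Aplnr and on vessel growth. It was at 1.48 FPKM at 0 h (interval 0.873 to 2.09), 2.39 at 4 h (1.60 to 3.18) and 12.3 at 12 h (9.80 to 14.7), with log2 ratios of 1.97 for 12 h over 4 h and 2.42 for 12 h over 0 h. The 12 h interval stands clear of both earlier ones. Its receptor did not follow: Aplnr was at 1.63, 4.65 and 1.38 FPKM at 0, 4 and 12 h, and the second ligand Apela at 1.06, 5.78 and 0, so both were highest at 4 h. Ccrl2, an atypical receptor that binds the chemoattractant chemerin, was at 3.12, 4.92 and 13.2 FPKM (9.77 to 16.6 at 12 h; log2 ratios 1.26 over 4 h and 1.78 over 0 h). Chemerin itself, Rarres2, was at 132, 119 and 196 FPKM, and its signalling receptor Cmklr1 at 0.990, 1.27 and 1.04. Gas1, a surface co-receptor for hedgehog ligands, was at 4.76, 4.40 and 11.1 FPKM (8.82 to 13.4 at 12 h; log2 ratios 1.16 and 1.07).

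Other hedgehog genes moved differently from Gas1. The ligands Ihh, at 115, 27.0 and 53.6 FPKM at 0, 4 and 12 h, and Dhh, at 42.2, 13.4 and 18.6, were both lower at 12 h than at 0 h by more than 2-fold. With 1 FPKM added, the target genes Ptch1 (4.75, 5.60 and 5.24 FPKM) and Gli1 (1.54, 0.774 and 1.74) were within 2-fold between each pair of libraries. As a plain ratio Gli1 passed 2-fold from 4 to 12 h, against a log2 ratio of 0.63 with 1 FPKM added. Of 14 hedgehog genes, Gas1 alone was 2-fold higher at 12 h than at either earlier time. This list and the other family lists named beside single members were drawn up after the members were known.

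Xpnpep2, a membrane-bound aminopeptidase that removes an N-terminal residue before proline, lies 72.1 kb from Apln on chromosome X (Apln 48025146 to 48034853, Xpnpep2 48106913 to 48136982), with no other coding gene of the table between them. It was at 0.251 FPKM at 0 h (0.00646 to 0.512), 0.686 at 4 h (0.302 to 1.08) and 5.13 at 12 h (3.90 to 6.37), with log2 ratios of 1.86 over 4 h and 2.29 over 0 h. Both genes of the pair had a somewhat higher level at 4 h than at 0 h and their highest level at 12 h. The coding genes on the outer sides had no 2-fold rise at 12 h: Ocrl, beside Apln, was at 14.1, 10.6 and 15.1 FPKM, and Sash3, beside Xpnpep2, at 0.314, 0.738 and 0.255. The cytosolic relative Xpnpep1 was at 33.1, 38.2 and 36.9 FPKM. Apln and Xpnpep2 are the single pair of neighbouring coding genes among the 45, and no chromosome holds more than 6 members.

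Matrix genes and proteases include the most abundant member. Mmp11 (stromelysin 3), a matrix metalloproteinase that is activated inside the cell, was at 87.9 FPKM at 0 h (81.7 to 94.4), 111 at 4 h (104 to 117) and 229.5 at 12 h (218 to 241). The log2 ratio was 1.05 for 12 h over 4 h, just inside the threshold, and 1.37 for 12 h over 0 h. Of 20 matched metalloproteinase genes Mmp11 was the one called higher at 12 h than at 4 h. Mmp14, at 44.0, 42.2 and 48.02 FPKM, and Mmp23, at 66.5, 59.2 and 66.6, were level, and Mmp19 had risen at 4 h already, at 1.32, 7.004 and 10.5. Mmp11 overlaps the mitochondrial gene Chchd10 on the other strand, which was at 89.5, 147 and 253 FPKM; strandedness was not given in the sources used here, so reads of the overlap cannot be assigned to either gene with certainty.

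Ccn5, a matricellular protein of the CCN family, was at 0.857, 0.585 and 6.17 FPKM (4.42 to 7.93 at 12 h), with log2 ratios of 2.18 over 4 h and 1.95 over 0 h. It was the one of 6 family members past the 2-fold call; the abundant Ccn1 and Ccn2 were at 37.4, 56.4 and 54.6 and at 215, 332 and 169 FPKM. Col10a1, the collagen X chain known from hypertrophic cartilage, was at 0.179, 0.626 and 2.35 FPKM (1.27 to 3.43). It was the single one of 44 collagen genes to pass 2-fold from 4 to 12 h, while 5 of the 44, Col10a1 among them, passed it from 0 to 12 h. Col10a1 overlaps Nt5dc1 on the opposite strand, which was at 6.68, 2.77 and 6.25 FPKM. Dpep2, a dipeptidase that processes leukotrienes, was at 1.25, 1.115 and 3.65 FPKM, and its 12 h interval (1.15 to 6.52) overlapped both others.

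**Figure D2:**
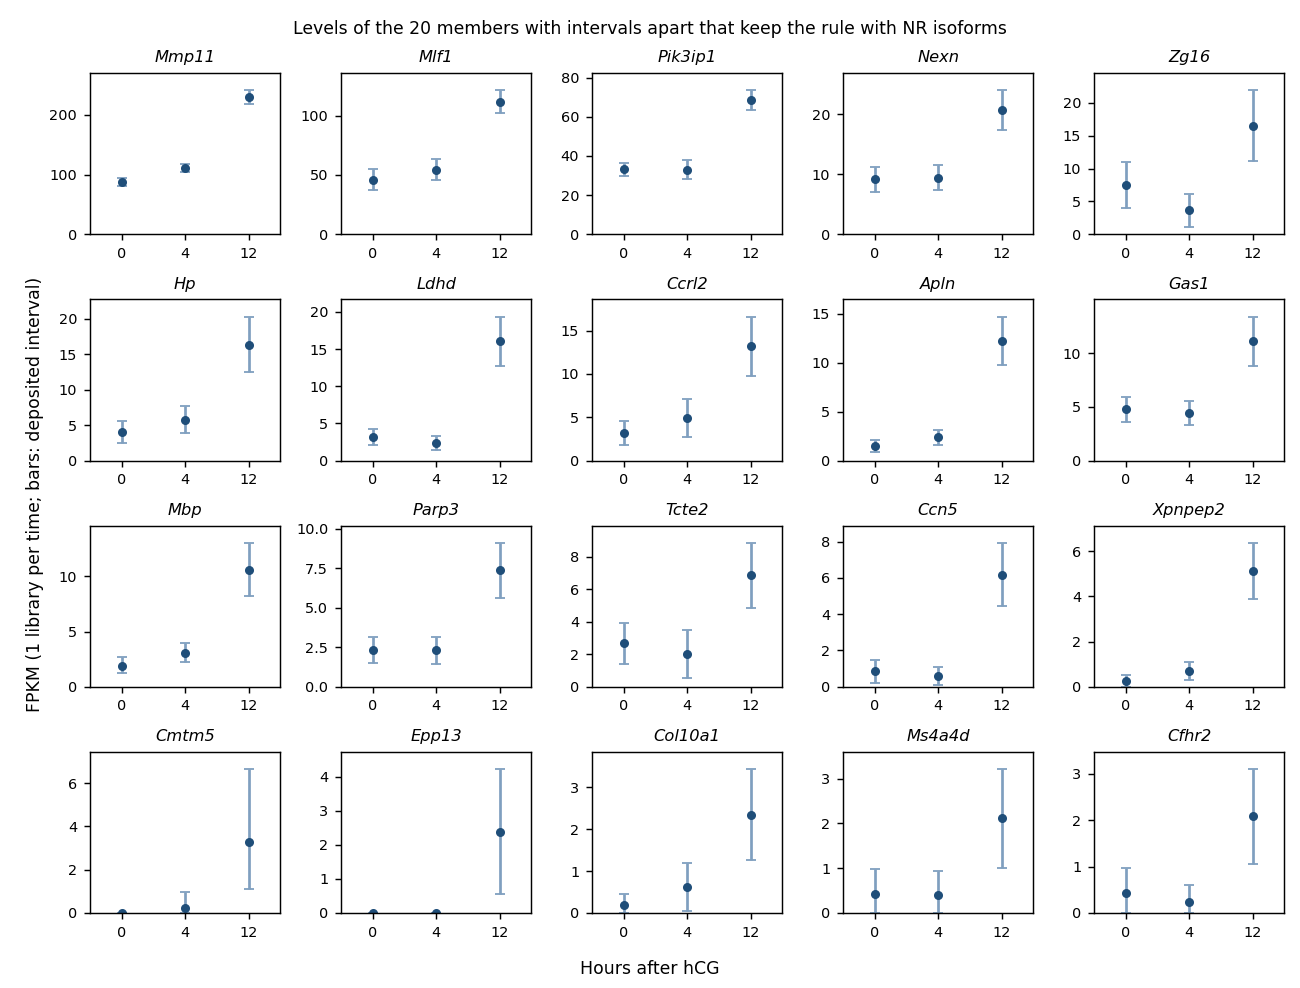
FPKM at 0, 4 and 12 h after hCG (times evenly spaced) of the 20 members whose intervals lay apart and which met the rule with noncoding isoforms, ordered by 12 h level; points are 1 library each and bars the deposited intervals. Each gene is highest at 12 h, from 229.5 FPKM for Mmp11 to 2.09 FPKM for Cfhr2, and the 0 h and 4 h intervals overlap in all panels but those of Cmtm5 and Mmp11. The 4 h lower bound of Cmtm5 is over 0 only through the joining, since each of its isoforms has a bound of 0.

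Several members encode secreted proteins of plasma, mucosa or secretory granules. Hp encodes haptoglobin, which binds free haemoglobin. It was at 4.00 FPKM at 0 h (2.40 to 5.59), 5.78 at 4 h (3.82 to 7.75) and 16.3 at 12 h (12.4 to 20.3), with log2 ratios of 1.35 over 4 h and 1.79 over 0 h. With 1 FPKM added, other genes of haem handling were not 2-fold higher at 12 h than at either earlier time. Haem oxygenase Hmox1 was at 25.5, 53.7 and 29.4 FPKM. The haptoglobin-haemoglobin receptor Cd163 was at 0.179, 0.676 and 0.348, and haemopexin (Hpx) at 0.177, 0.0645 and 0.204. Zg16, a lectin of zymogen granules and intestinal mucus, was at 7.45 FPKM at 0 h (3.96 to 10.9), 3.68 at 4 h (1.17 to 6.19) and 16.5 at 12 h (11.2 to 21.9). Its 4 h level was about 2-fold under the 0 h level (log2 ratio -0.85), the largest move before 12 h among the 20, and its log2 ratio for 12 h over 0 h was 1.05. Cfhr2, a relative of the complement regulator factor H, was at 0.429, 0.236 and 2.09 FPKM (1.07 to 3.10). No member is among the 16 genes of the complement list, where only the complement protease Cfd, at 5.60, 4.88 and 11.1 FPKM, was 2-fold higher at 12 h than at 4 h. From 0 to 12 h C1qa (8.02, 21.4 and 17.0 FPKM) and C1qc (6.71, 16.6 and 17.4) passed 2-fold. Epp13 was listed at 0 at 0 and 4 h, with bounds of 0, and was at 2.37 FPKM at 12 h (0.567 to 4.23). Obp2a, an odorant-binding protein, was listed at 0 at 0 and 4 h and was at 1.19 FPKM at 12 h with a lower bound of 0.

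Ldhd encodes the mitochondrial D-lactate dehydrogenase, which turns D-lactate into pyruvate. It was at 3.20 FPKM at 0 h (2.1 to 4.29), 2.41 at 4 h (1.48 to 3.35) and 16.0 at 12 h (12.7 to 19.4). Its log2 ratios of 2.32 over 4 h and 2.02 over 0 h were the largest among the 20 when the smaller of both ratios is ranked, and it was the single one of the 20 past 4-fold in both. These levels correspond to about 88.0, 59.6 and 386 fragments at the estimated depth. The enzymes that make D-lactate from methylglyoxal were within 2-fold, with Glo1 at 23.4, 16.8 and 25.8 FPKM and Hagh at 33.2, 18.0 and 25.5. So were the L-lactate dehydrogenases Ldha, at 280, 263 and 259, and Ldhb, at 189, 164 and 219. In the list of 21 lactate and pyruvate genes 3 gained from 4 to 12 h and none lost. Of those, Pdk1 (14.0, 5.05 and 12.7 FPKM) and Pdk2 (13.2, 4.24 and 10.3), kinases that restrain pyruvate dehydrogenase, had dipped at 4 h, and Ldhd alone was above its 0 h level. The Znrf1 gene on the other strand of Ldhd was at 29.6, 36.8 and 30.8 FPKM. Car11, a carbonic anhydrase relative without catalytic activity, was at 0.605, 0.613 and 2.43 FPKM with overlapping intervals.

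Among signalling genes Pik3ip1 was the best measured. It encodes a transmembrane inhibitor of PI 3-kinase, and was at 33.3 FPKM at 0 h (29.9 to 36.7), 32.9 at 4 h (28.1 to 37.7) and 68.5 at 12 h (63.6 to 73.4). The level was flat over the first 4 h (log2 ratio -0.01), and both later ratios, 1.03 and 1.02, were close to the threshold. Of 11 class I PI 3-kinase genes it was the one past the 2-fold call from 4 to 12 h; the catalytic subunit Pik3cd came close (log2 ratio 0.98) and was at 18.8, 12.3 and 25.2 FPKM. Arl9, a small GTPase of the ADP-ribosylation factor family, was listed at 0 at 0 and 4 h and was at 1.75 FPKM at 12 h. Pde6h and Pde6g encode the inhibitory gamma subunits of the cone and rod photoreceptor phosphodiesterase. Pde6h was listed at 0 at 0 and 4 h and was at 1.93 FPKM at 12 h (0 to 4.14), and Pde6g was at 6.0e-05, 2.9e-05 and 1.32 FPKM (0.201 to 2.44 at 12 h). The catalytic subunits Pde6a (0.694, 0 and 0.151 FPKM), Pde6b (0.144, 0.0641 and 0.166) and Pde6c (0 in each library) stayed under 1 FPKM, while Pde6d, which is found outside the eye, was at 43.9, 21.0 and 43.0.

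Mlf1, myeloid leukaemia factor 1, was the second most abundant member, at 45.8 FPKM at 0 h (36.9 to 54.7), 54.5 at 4 h (46.0 to 63.1) and 112 at 12 h (103 to 121). Its log2 ratio of 1.02 for 12 h over 4 h was the smallest of all members, while its relative Mlf2 was lower at 12 h than at 4 h, at 120, 151 and 97.9 FPKM. Parp3, an ADP-ribosyltransferase of DNA break repair, was level at 2.31 FPKM at both 0 and 4 h (1.47 to 3.15 in each) and at 7.38 at 12 h (5.64 to 9.12). The 11 other measured genes of its family, Parp1 and Parp2 included, were not 2-fold higher at 12 h than at 4 h or 0 h. Nexn, an actin-binding protein of the Z disc and stress fibres, was at 9.18, 9.46 and 20.7 FPKM (17.5 to 24.0 at 12 h). Actin-bundling Actn1, at 24.6, 68.3 and 33.0, and Zyx, at 62.4, 122 and 74.0, were highest at 4 h instead. Tcte2, named for testis expression, was at 2.68, 2.01 and 6.85 FPKM (4.86 to 8.84); it overlaps Afdn on the opposite strand, at 29.9, 25.4 and 37.1 FPKM.

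Membrane proteins known from other tissues made up a further group. Mbp, myelin basic protein, was at 1.89 FPKM at 0 h (1.25 to 2.67), 3.06 at 4 h (2.21 to 4.01) and 10.6 at 12 h (8.21 to 13.0). Of its 8 coding isoforms 2 carried the 12 h level: NM_001025245 was at 1.48, 2.43 and 5.63 FPKM and NM_001025259 at 0.406, 0 and 4.98. With the first isoform alone Mbp did not meet the rule. Ms4a4d, of a family of four-span membrane proteins, was at 0.419, 0.399 and 2.11 FPKM (1.01 to 3.21 at 12 h). Cmtm5, a MARVEL-domain membrane protein, was listed at 0 at 0 h and was at 0.210 and 3.26 FPKM at 4 and 12 h (1.09 to 6.64 at 12 h). Ifitm1, an interferon-induced transmembrane protein, was at 4.13, 4.08 and 10.03 FPKM, and Ninj2, an adhesion protein of the ninjurin family, at 2.67, 2.85 and 7.08; the intervals of both overlapped. Family members Ifitm2 (233, 179 and 251 FPKM) and Ifitm3 (39.8, 66.0 and 62.5) were far more abundant and under the 2-fold call, Ifitm6 (4.23, 0.733 and 3.06) passed it from 4 to 12 h after a dip, and none of the 17 matched genes of the interferon list was 2-fold higher at 12 h than at 4 h or 0 h.

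The remaining members with overlapping intervals were low. Ankrd37, an ankyrin-repeat gene known as a target of hypoxia-inducible factor, was at 0.739, 1.31 and 4.17 FPKM, from about 7.0, 11.3 and 35.2 fragments. Nrn1l, a relative of the neurite factor neuritin, was at 0.545, 0.615 and 3.15 FPKM. It overlaps Edc4 on the same strand over 1342 bases, and Edc4 was at 22.2, 29.6 and 20.3 FPKM. Which gene the fragments of this overlap came from was not tested. Rpl38, a protein of the large ribosomal subunit, was listed at 1.75, 1.38 and 8.72 FPKM with a joined 12 h interval of 0.239 to 20.2. The deposited 12 h lower bound of each of its isoforms was 0. The 97 ribosomal protein genes summed to 14074, 15614 and 15506 FPKM, and Rpl38 was the 1 that met the rule. Rpl38, Ifitm1, H3c1 and Omt2a belong to families with similar copies, and whether fragments were split among them was not tested. Tnnc2 (fast muscle troponin C), Dynlrb2 (a dynein light chain of cilia), H3c1 (a replication-dependent histone H3), Iqcf5 and 1600014C23Rik were listed at 0 at 0 and 4 h and reached 1.60, 1.38, 1.15, 1.25 and 1.65 FPKM at 12 h. In all, 10 members lay under 0.001 FPKM in both earlier libraries, and their 12 h levels ran from 1.15 to 2.37 FPKM. For the 7 of them with a single isoform of usable length this is between 4.1 and 9.3 fragments, and in 8 of the 10 the 12 h lower bound was 0. A level above 0 at 12 h was thus not resolved for those 8 at this depth.

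**Figure D3:**
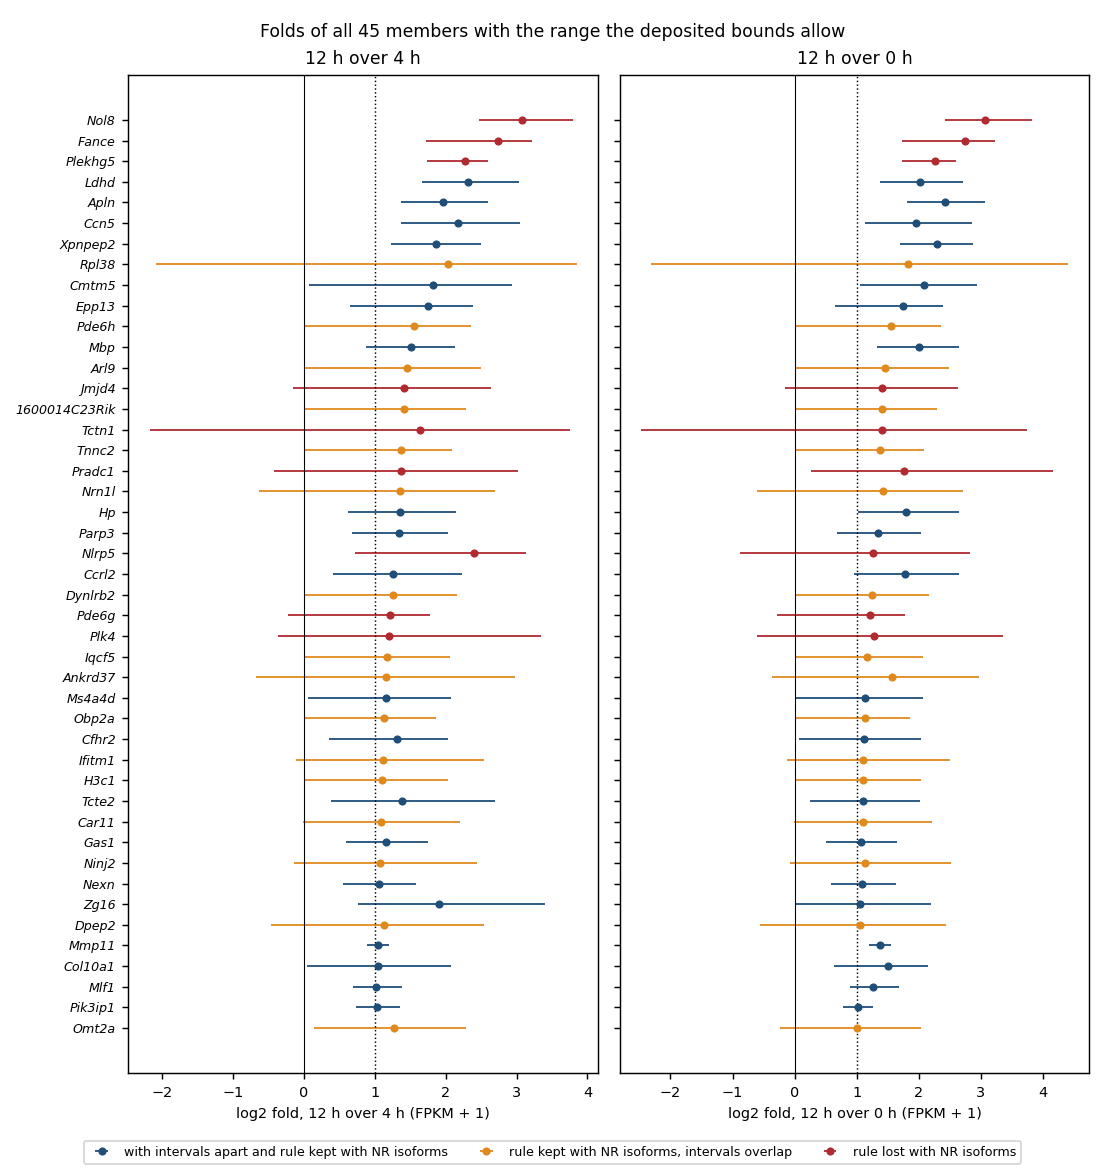
Log2 ratio of FPKM + 1 for 12 h over 4 h (left) and 12 h over 0 h (right) of all 45 members, ordered by the smaller ratio; bars run from the lowest to the highest ratio that the deposited bounds allow, and the dotted line marks 2-fold. Bars of the 20 better measured members (blue) stay above 0, most of those of the other 25 reach 0, and Rpl38 and Tctn1 have the widest bars.

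The 9 members with an NR isoform behaved in a way the summed coding values do not show. NR isoforms are transcripts of a coding gene that RefSeq classes as noncoding, often because a premature stop codon makes them targets of decay. An NR isoform was present in 20% of members, against 3.38% of coding genes with at least 1 FPKM at 12 h. In 8 of the 9 the summed NR level was lower at 12 h than at both earlier times, while the rule had fixed the NM level to be higher. Over all 549 coding genes with an NR isoform that sum was lowest at 12 h in 26.4%; the members were chosen on isoforms that share fragments with it, so nothing is read from the contrast. Nol8, a nucleolar protein of ribosome assembly and the member with the largest ratio over each earlier time, had NM levels of 0.478, 0.475 and 11.4 FPKM (9.66 to 13.2 at 12 h) and NR levels of 8.87, 10.03 and 0.0372 FPKM. Its total was 9.35, 10.5 and 11.5 FPKM, a log2 ratio of 0.12 for 12 h over 4 h against 3.08 for the coding sum. The level of the gene as a whole was therefore nearly flat, and the listed isoform exchanged.

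Totals of the other members in this set were not all flat. Plekhg5, an exchange factor for the GTPase RhoA, had NM levels of 0.00337, 0.00176 and 3.83 FPKM and NR levels of 6.23, 9.83 and 1.46, and its total was lower at 12 h (6.24, 9.83 and 5.28 FPKM). Fance, a subunit of the Fanconi anaemia core complex for DNA crosslink repair, had NM levels of 0.00345, 0.00347 and 5.69 FPKM and a total of 11.9, 6.51 and 11.3. Plk4, the kinase of centriole duplication, had NM levels of 3.15, 3.39 and 9.05 FPKM and a total of 15.1, 15.0 and 11.0. Pradc1, a secreted protein with a protease-associated domain, had NM levels of 2.91, 4.17 and 12.3 FPKM and a total of 11.3, 7.0 and 12.3. Tctn1, of the ciliary transition zone, had a total of 14.0, 8.31 and 11.7 FPKM, and Jmjd4, a hydroxylase of a translation release factor, one of 5.19, 3.75 and 4.22. In total, 8 of the 9 stayed within 2-fold between 12 h and either earlier time; Pde6g, at 0.379, 0.144 and 1.32 FPKM in total, was the exception, with a log2 ratio of 1.02 over 4 h. Isoforms of 1 gene share most of their sequence, and how the authors' software divided the fragments among them cannot be checked from FPKM.

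**Figure D4:**
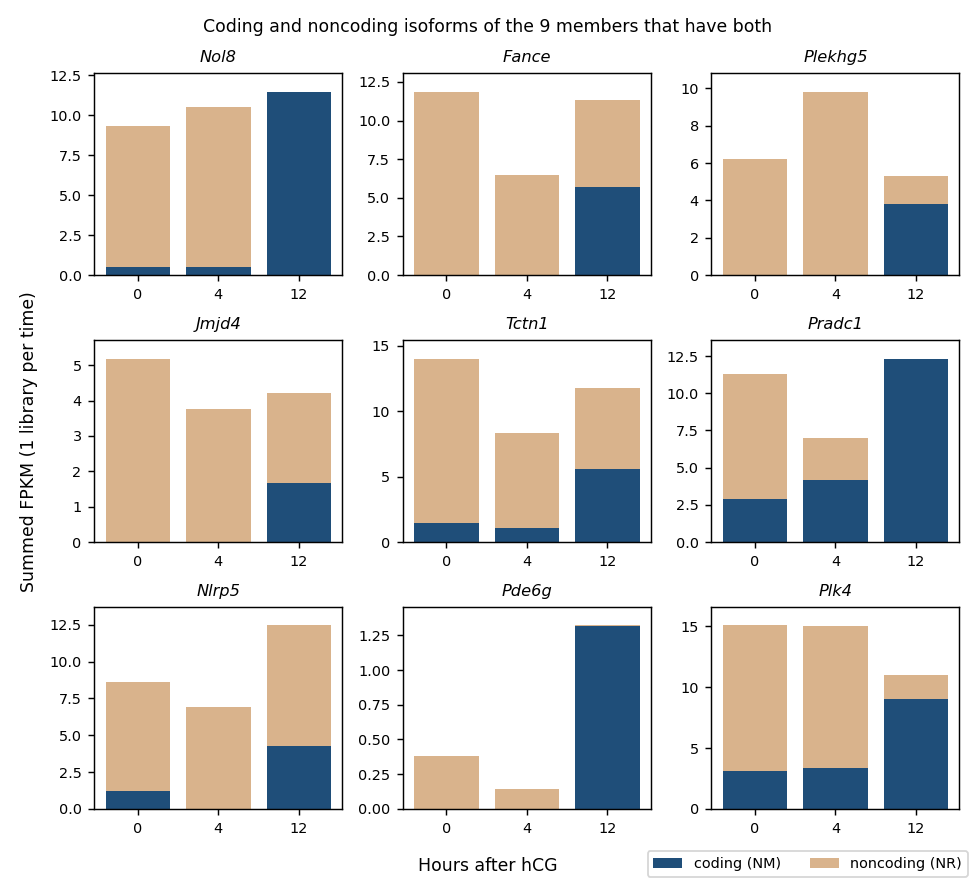
Summed FPKM of coding (NM, blue) and noncoding (NR, tan) isoforms at 0, 4 and 12 h after hCG (times evenly spaced, 1 library each) for the 9 members that have both kinds. The blue part is largest at 12 h in each panel, while the whole bar at 12 h is, as a plain ratio with no FPKM added, within 2-fold of that at 0 h in all but Pde6g, as for Nol8 with 9.35 and 11.5 FPKM.

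The oocyte genes Nlrp5 and Omt2a were also members, both known as maternal transcripts. Nlrp5, a subunit of the subcortical maternal complex, had NM levels of 1.19, 0.000487 and 4.28 FPKM and NR levels of 7.45, 6.95 and 8.18, with a total of 8.64, 6.95 and 12.5. Omt2a was at 6.32, 5.07 and 13.7 FPKM, but its isoform with the highest mean level, NM_001111286, was at 5.25, 4.93 and 3.80, and the rise lay in NM_001164523 (1.07, 0.139 and 9.89). Of 12 oocyte markers, 11 of them with at least 1 FPKM, 2 were 2-fold higher at 12 h than at 4 h, and the summed level of the list was 199, 151 and 282 FPKM at 0, 4 and 12 h. One of the 2 is Nlrp5 itself, which the rule chose and which is part of the sum; the other is Oosp1, at 37.0, 22.1 and 48.8 FPKM. The zona pellucida gene Zp2 was at 31.0, 25.5 and 45.9 FPKM and the oocyte growth factor Gdf9 at 53.6, 48.2 and 83.8. Of the list only Dazl (4.80, 2.46 and 3.52 FPKM) and Kit (4.68, 3.64 and 3.84) were lower at 12 h than at 0 h. From 0 to 12 h Nlrp5 alone passed 2-fold. The sum of the list was thus highest at 12 h, as were both members, and the part of oocyte RNA in their levels was not tested.

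Summed markers of cells other than oocytes were not highest at 12 h. Of 11 leukocyte markers, with Cd3e near 0, none was 2-fold higher at 12 h than at 4 h, and they summed to 75.0, 108 and 108 FPKM. From 0 to 12 h Cd68 (2.09, 7.57 and 6.57 FPKM) alone of these passed 2-fold, with a median log2 ratio of 0.44 for the list. Neutrophil markers summed to 2.42, 25.4 and 4.47 FPKM (6 genes, Ngp at 0), and endothelial markers to 29.6, 54.3 and 26.4 (9 genes). Theca and stroma markers summed to 437, 801 and 608 FPKM (11 genes), smooth muscle markers to 133, 194 and 192 (9 genes), surface epithelium markers to 467, 261 and 188 (9 genes) and erythroid markers to 1739, 1092 and 1111 (7 genes, Hba-a2 near 0). The surface epithelium sum followed Aldh1a1 (412, 128 and 101 FPKM). The median log2 ratio of that list was -0.43 for 12 h over 4 h but 0.56 for 12 h over 0 h. Leukocyte, neutrophil, smooth muscle, and theca and stroma sums were above their 0 h level at 12 h, and their part in the members' levels was not tested. In the theca and stroma list Mgp (70.9, 371 and 191 FPKM) alone was 2-fold higher at 12 h than at 0 h. Insl3 (13.1, 7.02 and 4.02 FPKM) was 2-fold lower, and Cyp17a1 (93.6, 114 and 59.0 FPKM) was also below its 0 h level. Single markers did reach their highest level at 12 h, among them the collagen Col3a1 of stroma (57.7, 94.7 and 103 FPKM), Lum (8.22, 6.75 and 14.1) and the smooth muscle actin Acta2 (59.8, 59.1 and 75.4). The median log2 ratio for 12 h over 4 h was 0.12 in the theca and stroma list and 0.09 in the smooth muscle list. The 10 granulosa markers were all present and summed to 11548, 10624 and 6206 FPKM, and Inha (6986, 7163 and 3742 FPKM) made up most of that sum. From 4 to 12 h 5 of the 10 gained 2-fold and 1 lost, with a median log2 ratio of 0.73. From 0 to 12 h none gained and 3 lost, with a median of -0.77.

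Genes named for the luteal and follicular phases took other courses than the members. None of 24 luteal and steroid synthesis genes is a member; from 4 to 12 h 1 gained and 8 lost, with a median log2 ratio of -0.66, against 0.01 over all coding genes with at least 1 FPKM. From 0 to 12 h 4 of the 24 gained and 1 lost, with a median of 0.22, against -0.01 over the same genes; those that gained, such as Star (14.3, 1583 and 83.8 FPKM), which carries cholesterol into mitochondria, were highest at 4 h. From 4 to 12 h, 7 of 17 follicular phase genes gained, but none was 2-fold above 0 h and 7 were below it. In the sarcomere list (35 genes, 12 with at least 1 FPKM) 3 were higher at 12 h than at 4 h: beside Tnnc2 these were the cardiac genes Mybpc3 (9.21, 2.15 and 13.1 FPKM) and Tnni3 (474, 80.6 and 252), which dipped at 4 h.

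Genes lay close to the thresholds on both sides. Just inside for 12 h over 4 h were Mlf1 (1.02), Pik3ip1 (1.03) and Col10a1 (1.04), and just outside were Bcat1, at 30.3, 32.6 and 65.4 FPKM (0.98), and Leap2 (0.95). For 12 h over 0 h, Omt2a (1.0), Pik3ip1 (1.02) and Dpep2 (1.05) lay just inside, and Tk2 (0.99), Rasa4 (0.98) and Plekhg4 (0.98) just outside. The limit on the rise at 4 h was not approached: the highest members were Ccrl2 (0.52), Mbp (0.49) and Col10a1 (0.46), and the next genes beyond it were Srgn (1.45; 2.55, 8.67 and 21.2 FPKM), Edn2 (2.08; 1.08, 7.83 and 29.6 FPKM) and Spp1 (2.79; 21.0, 152 and 358 FPKM), which rose in both steps. The 2 genes left out for their dip at 4 h were Ano4 (5.16, 0.0019 and 15.5 FPKM) and Dcpp3 (1.65, 0 and 4.42 FPKM). Of the 45 members 13 overlap, on the opposite strand in the GENCODE annotation of GRCm38, a coding gene that has an FPKM in the table, and of the 12 such partners with at least 1 FPKM Chchd10 alone was 2-fold higher at 12 h than at 0 h and none was 2-fold higher than at 4 h.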

How the data were processed

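Messenger RNA of granulosa cells was analysed from 1 library at each of 0, 4 and 12 h after hCG. The authors deposited FPKM values per RefSeq isoform with a lower and an upper bound; per the file headers a standard deviation is also given, and the upper bound equals the estimate plus 2 of them. That deviation, a further score on the FPKM scale deposited by the authors, was negative for the 12 estimates marked as failed, which were left without an interval. CASAVA 1.8, TopHat2 2.1.1 and Cufflinks 2.2.1 are named in the submitters' processing notes, as is the mm10 genome, with no role or order. Strandedness was not given in the sources used here.

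RefSeq accessions of 34535 isoforms were matched to symbols of GRCm38.p6 (34169) or through GENCODE M21 (193), and 173 were not used. NM isoforms were summed per symbol. Distances from the estimates to their upper bounds, and separately to their lower bounds, were joined as the root of summed squares, which assumes independent estimates. Deposited lower bounds are cut off at 0, so a joined lower bound can lie too high. Depth, from the steps of low FPKM values of single-isoform genes over 1000 nt, was about 13400000, 11900000 and 11600000 fragments at 0, 4 and 12 h. The share of low values (under 10 fragments) at most 0.1 from a whole count was 70.9%, 70.0% and 71.8%. Chance gives 20% at a fixed setting. Depth and a fragment length allowance were chosen to make this share largest, so it is no separate check of the depth. Coding genes with at least 1 FPKM numbered 11840, 12029 and 12019. With 1 library per time no test was run and no p-value computed; the depth covers counting error only. Analyses used Python 3.11.15, pandas 2.3.3 and NumPy 2.4.6. Members and lists were chosen with earlier results of these data known, the family and role groups after the members were seen, and the set of 20 joins a pair of conditions after their values were seen. Genes named are all 45 members, genes near each threshold, neighbours, overlapping genes, and examples from the lists. The alternatives tried were other pseudocounts, level filters, scalings, isoform choices and fold thresholds.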

Additional observations from a re-analysis of the deposited data

How the results depend on the processing

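All 45 genes stayed members under median-of-ratios scaling (49 genes in all), and under rescaling to the mean sum over coding genes or over all isoforms the 45 were joined by others, to 72 and 92 genes. These scalings moved the median log2 ratio of 12 h over 4 h over genes with at least 1 FPKM to 0.26 and 0.35, so the number of members depends on how the larger sum of the 4 h library is treated. A pseudocount of 0.1 FPKM gave 420 genes, 41 of them members, and 5 FPKM gave 7, 6 of them members; Apln, Ldhd and Mmp11 were the members among the 20 that held under both pseudocounts and each scaling. A floor of 5 FPKM at 12 h left 24 genes, intervals apart left 23, a 4-fold threshold left 4 and a 1.5-fold threshold gave 302. With NR isoforms counted 37 genes met the rule, 36 of them members, and with the largest NM isoform alone 61, 39 of them members. Signs turned in 9 ratios. With NR isoforms counted the log2 ratio of 12 h over 4 h was -0.79 for Plekhg5 and -0.42 for Plk4, and that of 12 h over 0 h was -0.20 for Plekhg5, -0.42 for Plk4, -0.064 for Fance, -0.25 for Jmjd4 and -0.24 for Tctn1. With the largest NM isoform Omt2a was at -0.30 over 4 h and -0.38 over 0 h. These changes follow from which isoforms enter the sum. No paired analysis was possible because each time has 1 library.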
